A study of Mus musculus with 6 samples.

Results

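MicroRNAs of the miR-199 and miR-214 group were measured in the heart muscle of mice, at a post-mortem interval (the time since death) of 0 h or 6 d. Members were all rows whose name begins with miR-199a, miR-199b or miR-214, each with an arm suffix. This gave 6 of the 984 mature miRNAs in the deposited files: mmu-miR-199a-5p, mmu-miR-199a-3p, mmu-miR-199b-5p, mmu-miR-199b-3p, mmu-miR-214-5p and mmu-miR-214-3p. Each interval had 3 libraries of small RNA, and by its title the series asks how miRNAs serve to estimate that interval. The labels name the tissue and the interval but no strain, age, sex or treatment, and they do not say that the 3 samples of an interval came from separate animals. The p-values thus rest on the spread among these 6 samples, and part or all of it may be technical.

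A miRNA gene is transcribed into a hairpin, which is cut into a duplex of a 5p and a 3p strand. One strand is usually loaded into an Argonaute protein and pairs through its seed, bases 2 to 8, with target mRNAs, while the other strand is mostly degraded. In the heart these miRNAs are known mainly from fibroblasts and other mesenchymal cells, but the libraries are of whole myocardium, and fibroblasts were not separated. miR-199a-3p is known for promoting cardiomyocyte proliferation, miR-199a-5p for restraining the hypoxia factor Hif1a, and miR-214-3p for limiting calcium entry through the sodium-calcium exchanger.

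By the GRCm38 annotation (GENCODE M21), the hairpins Mir199a-2 (chr1:162217814-162217923, plus strand) and Mir214 (chr1:162223368-162223477, plus strand) lie 5444 bases apart. Both overlap exons of the noncoding transcript Dnm3os, which runs opposite to the gene Dnm3, and on the other strand both lie in introns of Dnm3. The second copy of miR-199a, Mir199a-1 (chr9:21496495-21496564, minus strand), lies opposite to an intron of Dnm2, and Mir199b (chr2:32318460-32318569, plus strand) opposite to an intron of Dnm1. The 2 hairpins of the Dnm3os transcript are shown because the results turn on their arms. They are from RefSeq (GRCm38.p6), 5′ to 3′, each 110 bases long, with the 5p and then the 3p mature strand in capitals.
Mir199a-2: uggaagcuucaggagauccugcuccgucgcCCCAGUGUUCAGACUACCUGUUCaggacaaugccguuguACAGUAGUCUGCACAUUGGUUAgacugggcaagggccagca
Mir214: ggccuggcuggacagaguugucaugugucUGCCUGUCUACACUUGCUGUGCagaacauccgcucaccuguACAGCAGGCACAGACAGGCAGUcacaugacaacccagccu

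RefSeq held the mature sequence of 5 of the 6 members, and these are printed with the seed in capitals.
miR-199a-5p: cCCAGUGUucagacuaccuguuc
miR-199a-3p and miR-199b-3p: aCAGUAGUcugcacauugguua
miR-214-5p: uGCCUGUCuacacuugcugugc
miR-214-3p: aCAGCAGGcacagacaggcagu
The 3p strands of miR-199a and miR-199b are the same molecule, so no read can be assigned to one of them. Apart from this pair, none of these 5 shared its seed with another of the 851 measured miRNAs that had a RefSeq sequence, a set without miR-199b-5p. The seeds of miR-199a-3p and miR-214-3p are close, and they differ by U5C and U8G (the miR-199a-3p base, its position counted from 1 at the 5′ end, and the miR-214-3p base). GC content ranged from 40.9% in miR-199a-3p to 59.1% in miR-214-3p, with 52.2% in miR-199a-5p and 54.5% in miR-214-5p, and its median over the 407 tested miRNAs with a sequence was 47.6%. Their lengths were 22 or 23 bases, so levels can be compared per read. Ligation efficiency in small RNA libraries also depends on the end of a miRNA, so the order of levels between miRNAs is that of reads.

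Libraries held 4468547 to 7906557 miRNA reads at 0 h and 617069 to 1889594 at 6 d. Markers of several cell types differed between the intervals. Summed over each list, epithelial miRNAs ran from 139 to 439 normalised counts per 1000000 reads (CPM) at 0 h and from 1408 to 2579 at 6 d. The skeletal muscle miRNA miR-206-3p ran from 8.34 to 15.3 and from 685 to 1440 CPM, and the 5 erythroid rows, of which miR-486a-5p and miR-486b-5p share reads, from 34442 to 45230 and from 70315 to 114787. Of the erythroid rows only miR-451a was called, at a log2 fold change of 2.30, and the median of that list was -0.27. The liver miRNA miR-122-5p ran from 668 to 1406 CPM at 0 h and from 2086 to 23460 at 6 d. All 6 cardiomyocyte markers were detected, and together they held 22.8% to 37.4% of reads at 0 h and 20.4% to 44.6% at 6 d, most of them reads of miR-1a-3p. Of these 6 markers 3 were called lower, miR-133a-5p (log2 fold change -1.83), miR-208a-3p (-1.49) and miR-499-5p (-1.48), and 1 higher, miR-133a-3p (1.43), with a list median of -1.17. Of the 7 epithelial miRNAs 6 were called higher. Over all tested miRNAs 16% were called higher and 21.9% lower. None of the 4 smooth muscle and pericyte rows and none of the 4 leukocyte rows was called. No listed marker of any cell type was at 0 in every library. The part of these markers in the results was not tested. Levels are relative to the other miRNAs of a library, and in bulk tissue fewer cells of a type and less RNA per cell cannot be told apart.

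The group spanned a wide range of levels, and the order of the mean levels was the same at both intervals. miR-199a-3p was the most abundant, followed by miR-199a-5p, miR-199b-5p, miR-214-5p and miR-214-3p. The row of miR-199b-3p repeated that of miR-199a-3p: the 2 rows were identical to the last decimal in 4 libraries, and they differed by 2 of 14123 reads in 0 h replicate 1 and by about 9 of 12396 in 6 d replicate 1. Independent rows of this size would differ by 95.5 reads or more (1 SD), so the pair is 1 measurement, described below through miR-199a-3p. Among all miRNAs, miR-199a-3p ranked 22 to 29 by reads at 0 h and 16 to 19 at 6 d. miR-214-3p ranked 148 to 182 at 0 h and 215 to 230 at 6 d. Neighbours low in this order overlapped: at 0 h miR-199b-5p ran from 83.2 to 97.4 CPM, miR-214-5p from 46.1 to 103 and miR-214-3p from 35.4 to 75.9. At 6 d these 3 did not overlap, with lowest levels of 71.3, 38.4 and 15.3 CPM and highest of 162, 50.3 and 18.5.

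On the deposited scale miR-214-3p was the only member called between the intervals, and it fell. Its level was 55.0, 75.9 and 35.4 normalised CPM in 0 h replicates 1, 2 and 3 and 18.5, 17.2 and 15.3 in the 6 d replicates. All 6 d libraries lay below all 0 h libraries, and the 0 h libraries were the more spread, with a coefficient of variation of 36.6% against 9.23% at 6 d. The reads behind these values numbered 226, 456 and 229 at 0 h and 29, 13 and 17 at 6 d. With so few reads at 6 d, the small spread there cannot be read as a trait of that interval. The log2 fold change was -1.59 ± 0.38 (SE, n = 3 each), a 3.0-fold lower level, with a limma adjusted p of 0.0099 over 470 tested miRNAs. The call was lost with library totals alone as the scaling (log2 fold change -1.14, adjusted p = 0.098), after thinning to equal depth (-1.17, adjusted p = 0.064) and without 0 h replicate 2 (-1.33, adjusted p = 0.051). As a plain share of reads it was 0.00314% to 0.00577% at 0 h and 0.00153% to 0.00275% at 6 d. The 95% Clopper-Pearson interval of 6 d replicate 3, 0.00160% to 0.00441%, overlapped that of 0 h replicate 3, 0.00274% to 0.00357%, so these 2 libraries were not told apart at this depth.

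Over all tested miRNAs 178 were called (37.9%), 103 lower (21.9%) and 75 higher (16%), against 1 lower and 0 higher of the 6 members. With RLE size factors the calls over all miRNAs split into 84 lower and 90 higher, and with library totals alone into 40 lower (8.47%) and 83 higher. At an unadjusted p under 0.05 there were 4 members, the 2 miR-199-3p rows (1 measurement) higher and miR-199a-5p and miR-214-3p lower, against 19.6% of all tested miRNAs higher and 28.1% lower. By edgeR, DESeq2 and limma-voom the 2 miR-199-3p rows were called higher. The median log2 fold change of the 6 rows was -0.26, and that of all 470 was -0.33. The -0.26 holds the shared miR-199-3p measurement as 2 rows. Among the 5 distinct measurements the middle value was that of miR-214-5p, -0.65. Groups did not overlap for 4 of the 6 rows, 2 higher (the shared miR-199-3p measurement) and 2 lower at 6 d. The same held for 50.6% of all tested miRNAs, 19.8% higher and 30.9% lower at 6 d, so the members' share was near the background.

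**Figure D1:**
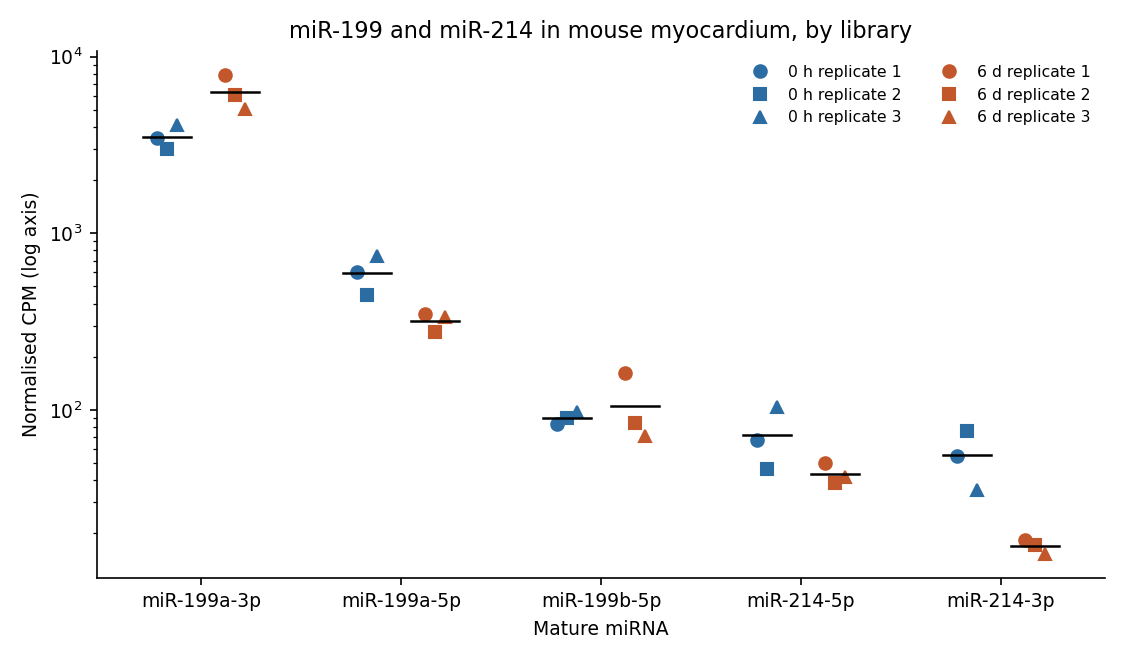
Normalised CPM (log axis) of the 5 distinct miR-199 and miR-214 measurements in each library, with 0 h in blue and 6 d in orange. Symbols mark the replicate and black lines the mean of 3 libraries. The 6 d points lie above the 0 h points for miR-199a-3p, from 5021 to 7890 against 2979 to 4101, and below them for miR-199a-5p and miR-214-3p.

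The other strand of the same duplex, miR-214-5p, is the less studied arm. It measured 67.2, 46.1 and 103 CPM at 0 h and 50.3, 38.4 and 41.5 at 6 d. The groups overlapped, since 0 h replicate 2 lay below 6 d replicate 1. Its log2 fold change was -0.65 ± 0.38 (SE, n = 3 each, limma adjusted p = 0.20), with a 95% interval of -1.50 to 0.19.

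miR-199a-3p stood higher at 6 d in every library, at 3438, 2979 and 4101 CPM at 0 h and 7890, 6038 and 5021 at 6 d. The groups did not overlap. Means were 3506 ± 564 and 6316 ± 1455 CPM (SD, n = 3 each). Its log2 fold change was 0.84 ± 0.31 (SE) and missed the threshold at a limma adjusted p of 0.057. It was called in 7 of 12 alternatives and in 1 of the 6 fits that left out a library. These were the fits with RLE size factors (1.06, adjusted p = 0.021), with library totals alone (1.30, adjusted p = 0.030), by edgeR (0.99, adjusted p = 0.038), by DESeq2 (1.07, adjusted p = 0.0031), by limma-voom (1.01, adjusted p = 0.029), after thinning (1.24, adjusted p = 0.010), with a minimum of 10 CPM (0.84, adjusted p = 0.043) and without 6 d replicate 3 (0.99, adjusted p = 0.044). It was not called with the replicate block (adjusted p = 0.072), with no filter (adjusted p = 0.13), with a pseudocount of 0.5 or 5 (adjusted p = 0.056 and 0.058), with identical sequences summed (adjusted p = 0.059) or without any other single library, where the adjusted p was at most 0.19. The share of all miRNAs called higher was 19.2% with RLE size factors, 17.6% with library totals alone, 22% by edgeR, 19.9% by DESeq2, 22.9% by limma-voom, 17.5% after thinning and 20.7% with that minimum. As a share of reads miR-199a-3p held 0.302% ± 0.070 at 0 h and 0.737% ± 0.143 at 6 d (SD, n = 3 per interval), with an exact two-sided permutation p of 0.1, the smallest that 3 against 3 libraries allow. The adjusted p over the 6 shares was 0.15.

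miR-199a-5p, the opposite arm, stood lower at 6 d. It measured 602, 446 and 746 CPM at 0 h and 351, 277 and 335 at 6 d, so the groups again did not overlap. Its log2 fold change was -0.87 ± 0.32 (SE, n = 3 each) and missed the threshold at a limma adjusted p of 0.057. Among the settings run it was called only with a minimum of 10 CPM (adjusted p = 0.043) and with the replicate block (adjusted p = 0.038), where 31.9% and 24.7% of all miRNAs were called lower. As a plain share of reads its groups overlapped, with 0.0339% to 0.0662% at 0 h and 0.0292% to 0.0601% at 6 d.

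miR-199b-5p, whose 3p partner cannot be separated from that of miR-199a, measured 83.2, 90.0 and 97.4 CPM at 0 h and 162, 84.7 and 71.3 at 6 d. The 6 d libraries lay on both sides of the 0 h range, with replicate 1 above it and replicate 3 below it. It was not called, with a log2 fold change of 0.14 ± 0.37 (SE, n = 3 each, limma adjusted p = 0.78), and its 95% interval ran from -0.68 to 0.96. Without 6 d replicate 1 it was -0.21.

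**Figure D2:**
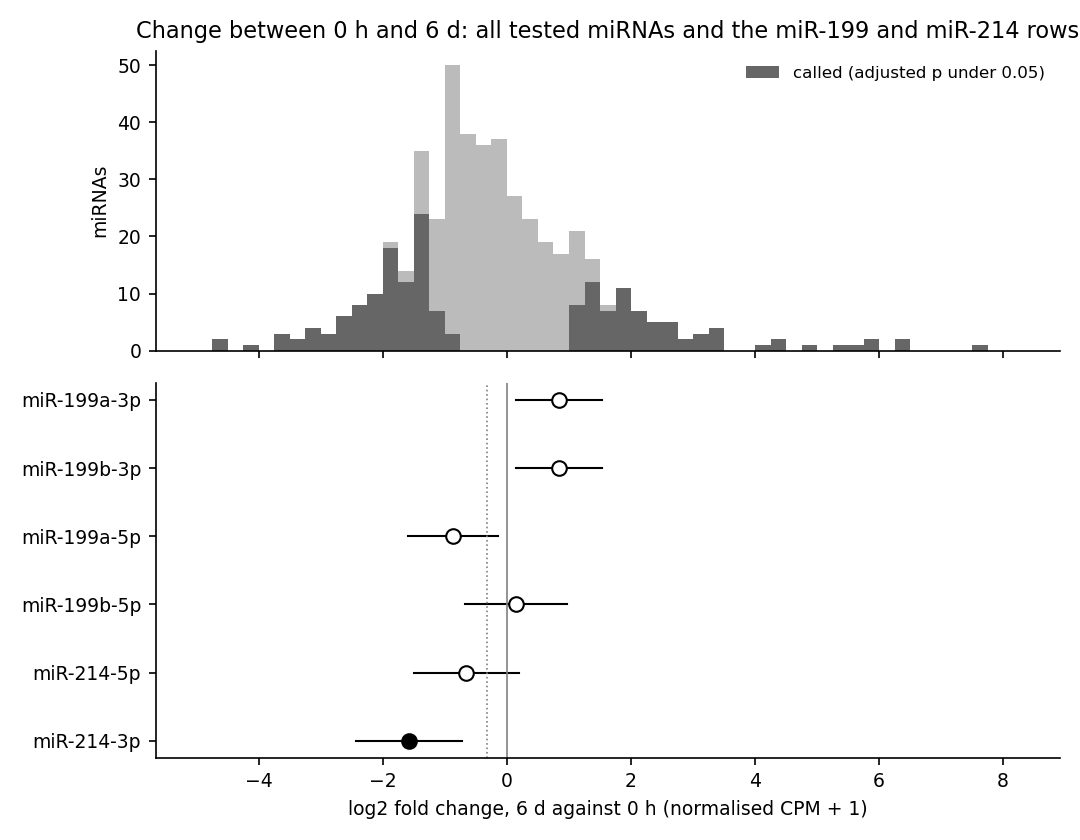
Upper panel: number of miRNAs at each log2 fold change, 6 d against 0 h, over the 470 tested (light) and the 178 called (dark). Lower panel: log2 fold change and 95% interval of each miR-199 and miR-214 row, filled where called, with the dotted line at the median of all tested miRNAs, -0.33. Intervals of the miR-199-3p rows lie above 0 and those of miR-199a-5p and miR-214-3p below it.

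The log2 fold changes depended on the scaling, which shifts all miRNAs together. Over all tested miRNAs the median log2 fold change was -0.33 as deposited, -0.17 by RLE size factors and 0.02 by library totals. Relative to that median, miR-214-3p stood at -1.26, -1.20 and -1.16 under these scalings. miR-199a-3p stood at 1.17, 1.23 and 1.27, and miR-199a-5p at -0.54, -0.48 and -0.44. The direction of each of these 3 members was the same under every setting run. In part this was fixed in advance. Leaving out 1 library cannot reverse groups that do not overlap, and the filter and replicate block settings return the main estimate.

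**Figure D3:**
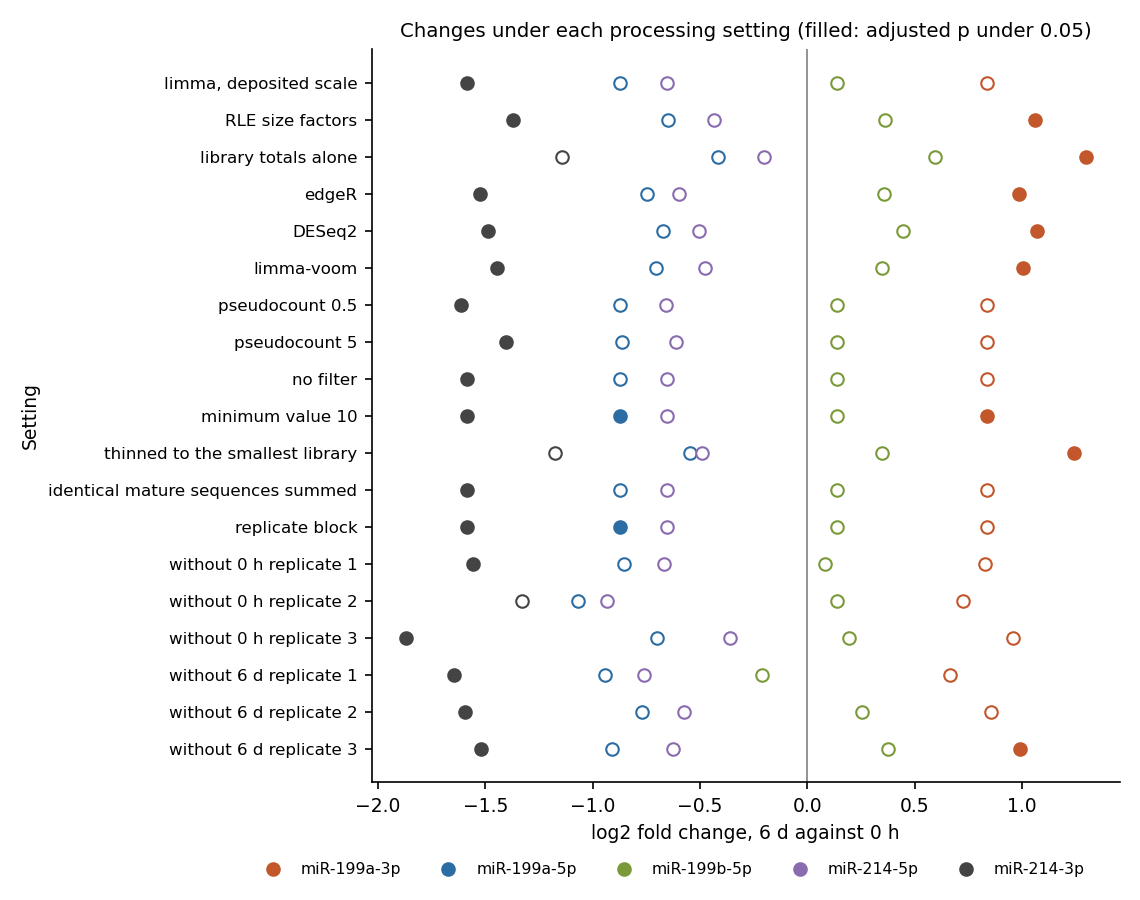
Log2 fold change, 6 d against 0 h, of the 5 distinct measurements under each processing setting, filled where the adjusted p is under 0.05. miR-214-3p lies between -1.87 and -1.14 and miR-199a-3p between 0.66 and 1.30 over all alternatives, while miR-199b-5p crosses 0 in 1 setting.

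The ratio of the 2 arms of miR-199a changed past the threshold, toward the 3p arm. The ratio is taken within a library, so no scaling enters it. For each 5p read there were 5.71, 6.67 and 5.50 reads of the 3p row in the 0 h libraries and 22.5, 21.8 and 15.0 in the 6 d libraries. Every 6 d library lay beyond the 0 h range. On the log2 scale, with 1 read added to each arm, the 5p to 3p ratio averaged -2.57 ± 0.15 at 0 h and -4.28 ± 0.33 at 6 d (SD over 3 libraries). The change was -1.71 ± 0.36 (SE, 95% interval -2.53 to -0.89, limma adjusted p = 0.011 over 116 precursors with both arms tested). Of these 116 ratios 22 (19%) were called toward the 3p arm and 22 (19%) toward the 5p arm. By size the change ranked 44 of 116. For 11 of the 116 precursors (9.48%) one arm lay higher and the other lower at 6 d with no overlap of groups in either arm, and miR-199a was among them.

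Because the 3p row also holds reads of miR-199b, the ratio was repeated with the rows of miR-199a and miR-199b summed for each arm. The summed log2 ratio was -3.33, -3.47 and -3.28 at 0 h and -4.94, -5.06 and -4.63 at 6 d. It changed by -1.52 ± 0.34 (SE, n = 3 each, limma adjusted p = 0.015), so the shift toward the 3p arm was called without assigning reads to a locus. If the files count a shared read in both 3p rows, the level of the summed ratio moves but its change does not. Within the 5p reads, the share of miR-199b-5p was 12.1%, 16.8% and 11.6% at 0 h and 31.6%, 23.4% and 17.6% at 6 d. Every 6 d library was above every 0 h library (exact two-sided permutation p = 0.1, the smallest possible). The separation was narrow, as the 17.6% of 6 d replicate 3 rests on 79 reads of miR-199b-5p and 0 h replicate 2 stood at 16.8%.

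For miR-199b alone the log2 ratio of 5p to the shared 3p row differed by -0.68 ± 0.39 (SE, n = 3 each, limma adjusted p = 0.19), which was not past the threshold. Its groups did not overlap, with -5.36, -5.05 and -5.39 at 0 h and -5.60, -6.13 and -6.12 at 6 d. miR-214 differed from miR-199a in which arm dominated. There were 1.22, 0.607 and 2.92 reads of miR-214-5p for each read of miR-214-3p at 0 h and 2.72, 2.23 and 2.71 at 6 d. The 5p arm thus had more reads in 5 of the 6 libraries, all but 0 h replicate 2. The 6 d libraries lay close together while the 0 h libraries scattered. At 6 d the ratio rested on 13 to 29 reads of miR-214-3p and 29 to 79 of miR-214-5p a library. These are too few to read that closeness as a trait of the interval. The difference of 0.93 ± 0.60 (SE, 95% interval -0.46 to 2.32) was not called (limma adjusted p = 0.26).

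**Figure D4:**
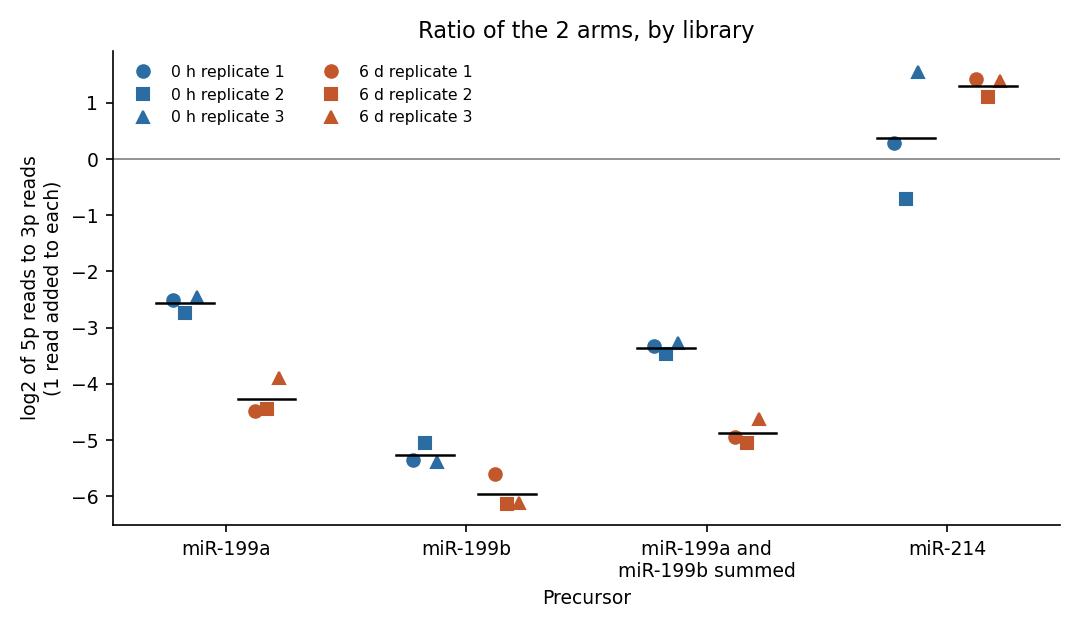
Log2 ratio of 5p to 3p reads in each library, with 1 read added to each arm, for miR-199a, miR-199b, both summed, and miR-214. Blue is 0 h, orange is 6 d, symbols mark the replicate and lines the mean of 3 libraries. The miR-199a ratio lies between -2.74 and -2.46 at 0 h and between -4.49 and -3.90 at 6 d, and the miR-214 ratio overlaps.

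The mature strands were also set against each other within each library. Reads of miR-199a-5p and miR-199a-3p can come from Mir199a-1 on chromosome 9 as well as from Mir199a-2, and those of the 3p strand also from Mir199b on chromosome 2, so these ratios do not compare strands of the Dnm3os transcript alone. The ratios were computed with 1 read added and compared by exact two-sided permutation tests, 18 ratios in all, each with a smallest possible p of 0.1 and an adjusted p of at least 0.2. The log2 ratio of miR-214-3p to the 2 miR-199-3p rows summed was -6.96, -6.29 and -7.85 at 0 h and -9.69, -9.35 and -9.27 at 6 d. The groups were fully apart, with a difference of -2.40 (exact p = 0.1). The ratio of miR-199a-5p to miR-214-3p, the members that were lower at 6 d, overlapped between the intervals (difference 0.69, exact p = 0.4). There were 11.0, 5.88 and 21.1 reads of miR-199a-5p for each read of miR-214-3p at 0 h and 19.0, 16.1 and 21.8 at 6 d. miR-199b-5p to miR-199a-5p was higher at 6 d in every library (difference 1.02, exact p = 0.1). After thinning to equal depth its difference was 0.89 (exact p = 0.2), and the groups were no longer fully apart.

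Of 9 other miRNAs known from cardiac fibroblasts and fibrosis, 8 were tested, with 1 called higher and 3 lower. Over all tested miRNAs 16% were called higher and 21.9% lower. The median log2 fold change of these 8 was -0.32. miR-21a-5p, which is induced in fibrotic heart, rose, with a log2 fold change of 1.24 ± 0.40 (SE, n = 3 per interval; limma adjusted p = 0.035). miR-125b-5p, linked to the fibroblast to myofibroblast transition, fell by 2.42 on the log2 scale (limma adjusted p = 0.0017), miR-433-3p fell by 2.32 (adjusted p = 0.0097) and miR-29b-3p fell by 1.84 (adjusted p = 0.031). The log2 fold change of miR-29a-3p, which represses collagens, was 0.12 (adjusted p = 0.75), that of miR-29c-3p 0.53 (adjusted p = 0.28), that of miR-22-3p -0.37 (adjusted p = 0.33) and that of miR-152-3p -0.27 (adjusted p = 0.68). The called fibroblast miRNAs went in both directions. miR-21a-3p, with 13 reads at 0 h and 1 at 6 d, was not tested.

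The level of miR-29a-3p was 1540 ± 113 CPM at 0 h and 1667 ± 92.9 at 6 d (SD, n = 3 per interval). The log2 ratio to it differed by 0.72 for the miR-199-3p rows summed, by -0.99 for miR-199a-5p and by -1.68 for miR-214-3p. In each case the groups did not overlap (exact p = 0.1, adjusted p = 0.2). The endothelial miR-126a-3p was called lower at 6 d (log2 fold change -1.33, limma adjusted p = 0.0095). The other arm of its hairpin, miR-126a-5p, was not called (log2 fold change -0.024, limma adjusted p = 0.96), and its groups overlapped. Against miR-126a-3p the miR-199-3p rows were higher by 2.17 with no overlap, while miR-214-3p (difference -0.24, exact p = 0.6) and miR-199a-5p (difference 0.46, exact p = 0.3) overlapped. The smooth muscle miR-143-3p was not called (log2 fold change -0.71, limma adjusted p = 0.21), and it ran from 27231 to 89835 CPM at 6 d. Against miR-143-3p the miR-199-3p rows were higher by 1.55 with no overlap. Against it miR-214-3p (difference -0.85, exact p = 0.2) and miR-199a-5p (difference -0.16, exact p = 0.9) overlapped. The cardiomyocyte miR-1a-3p was not called either (log2 fold change -0.33, limma adjusted p = 0.67). Against miR-1a-3p all 3 overlapped. The differences were 1.17, -0.54 and -1.23 for the miR-199-3p rows, miR-199a-5p and miR-214-3p (exact p = 0.2, 0.7 and 0.2).

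**Figure D5:**
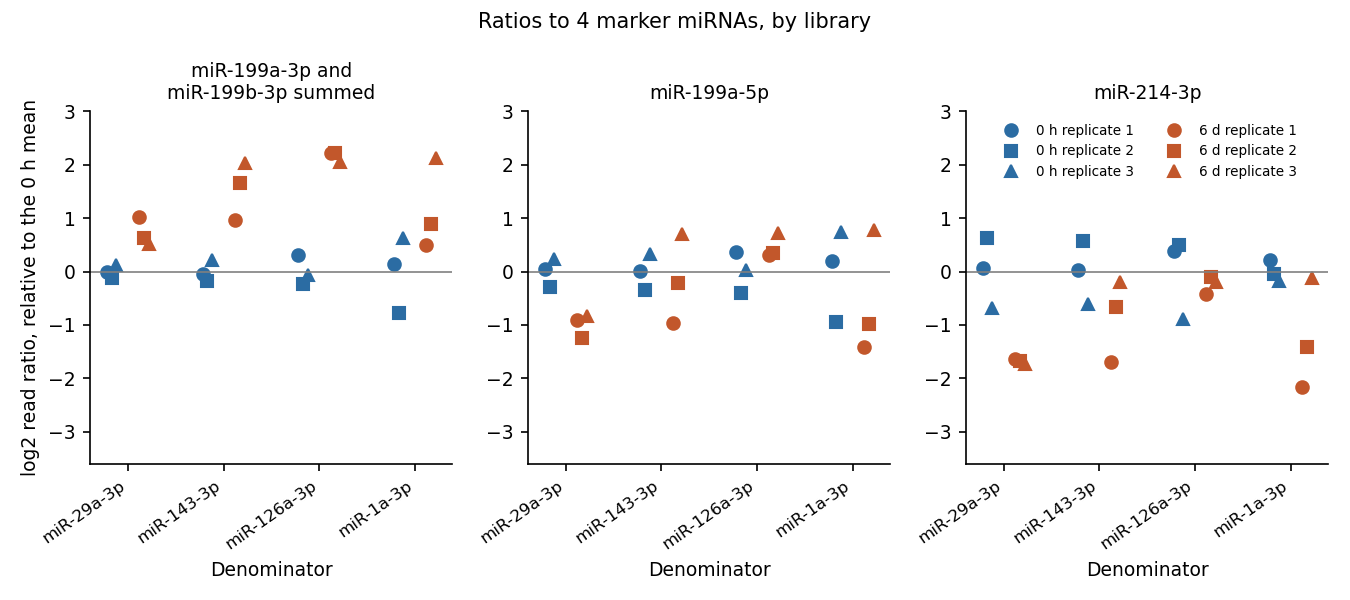
Log2 read ratio of the miR-199-3p rows summed, miR-199a-5p and miR-214-3p to miR-29a-3p (fibroblast), miR-143-3p (smooth muscle), miR-126a-3p (endothelium) and miR-1a-3p (cardiomyocyte), each minus its 0 h mean. Points are libraries, 0 h blue and 6 d orange. Relative to miR-29a-3p the 3 members are apart between intervals, with mean differences of 0.72, -0.99 and -1.68.

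The miRNAs whose pattern over the 6 libraries was most like a member were taken from 133 others with a mean of at least 100 CPM. The measure was the root mean square difference of log2 profiles, each centred on its own mean, and it describes these libraries only. Nearest to miR-199a-3p were miR-186-5p (0.17), miR-148b-3p (0.26), miR-23a-3p (0.26) and miR-30b-5p (0.27), against a median of 0.89 over the candidates. miR-186-5p was called higher at 6 d, with a log2 fold change of 1.04 ± 0.31 (SE, n = 3 each, limma adjusted p = 0.024). Nearest to miR-199a-5p were let-7c-2-3p and let-7a-1-3p (0.24 each), which have the same mature sequence, miR-27a-3p (0.25) and miR-23b-3p (0.26), against a median of 0.76. miR-27a-3p measured 5944 ± 1523 CPM at 0 h and 2771 ± 734 at 6 d (SD over 3 libraries). Nearest to miR-214-3p were miR-322-3p (0.30), miR-30c-2-3p (0.34), miR-133a-5p (0.37) and miR-320-3p (0.40), against a median of 0.89. miR-322-3p had a log2 fold change of -1.64 ± 0.32 (SE, n = 3 each, limma adjusted p = 0.0040). All those nearest to miR-199a-5p and miR-214-3p were called lower at 6 d except miR-23b-3p. Of those nearest to miR-199a-3p, all but miR-186-5p missed the threshold. Of all tested miRNAs 21.9% were called lower and 16% higher. The neighbours were picked for their likeness to a member over these same libraries. Their direction was set by that choice and is not a separate result.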

How the data were processed

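Small RNA of 6 myocardium libraries was analysed, 3 at 0 h and 3 at 6 d. Per the labels' protocols, Trizol RNA went into NEBNext small RNA libraries. The submitters' processing notes list STAR 2.5.3a, cutadapt 2.8, Trimmomatic 0.39 and FastQC without saying what each did. The build, the counting tool and the miRNA annotation were not given in the sources used here. Raw read counts fill the deposited file of 0 h replicate 1, and the other 5 deposited files hold log2 values of scaled reads plus 1, with 3 decimals. Undoing the log2 gave whole multiples of 1 step per library for 2692 of the 2692 values that could be tested (within 0.0005 on the log2 scale), so reads were recovered; 418 larger values could not be tested, and large values carry a rounding error of 0.0347%. The counts of 0 h replicate 1 were put on the same scale, called normalised CPM, by a factor of 0.919 that brings the product of all 6 library factors to 1. No source states this factor.

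The main test was limma 3.58.1 (trended, robust) on log2(normalised CPM + 1) over miRNAs at 1 or more in at least 3 libraries, with Benjamini-Hochberg adjustment over all 470 and a call at an adjusted p under 0.05. Fold changes on this scale understate those of low miRNAs. Arm ratios were tested with limma over 116 precursors paired by name. edgeR 4.0.16, DESeq2 1.42.0 and limma-voom were run on recovered reads. Members and lists were chosen with earlier results of these data known. The rule for named miRNAs takes all members, miRNAs sharing a seed, the listed markers and the 4 nearest patterns of 3 members. The limma test of fold changes was also run on simulated counts, and the outcome is not given here. The Clopper-Pearson intervals of read shares cover counting error only, as the labels name no molecular identifiers. Intervals of log2 fold changes and arm ratios come from the limma standard errors, which rest on the spread among libraries. Replicates differed beyond sampling noise in each pair (chi-square of at least 222 per degree of freedom), so each library was 1 sample.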

Additional observations from a re-analysis of the deposited data

How the results depend on the processing

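The number of members called, 1 of 6 rows on the deposited scale, was 3 with RLE size factors, edgeR, DESeq2 and limma-voom, 2 with library totals alone, after thinning and with the replicate block, and 4 with a minimum of 10 CPM. These counts take the shared 3p measurement as 2 rows of 6, with 5 distinct measurements. Over all miRNAs the calls were 174 of 468 (RLE), 151 of 363 (edgeR), 172 of 488 (DESeq2), 157 of 363 (limma-voom), 123 of 472 (library totals), 130 of 475 (thinning), 195 of 470 (replicate block) and 145 of 276 (minimum of 10 CPM). The number of members called was 0 to 3 when 1 library was left out. It was 0 without 0 h replicate 2, where 126 of 446 miRNAs were called. Without 6 d replicate 3 it was 3, where 179 of 444 miRNAs were called. The miR-199a-3p and miR-199b-3p rows gained a call at log2 fold changes of 1.06 and 1.06 (RLE), 1.30 and 1.30 (library totals), 0.99 and 0.99 (edgeR), 1.07 and 1.07 (DESeq2), 1.01 and 1.0 (limma-voom), 0.84 and 0.84 (minimum of 10 CPM) and 1.24 and 1.24 (thinning), and ranged from 0.66 to 0.99 when 1 library was left out. miR-199a-5p gained one at -0.87 with that minimum, where fewer miRNAs are tested, and at -0.87 with the replicate block. miR-214-3p lost its call at -1.14 with library totals alone and at -1.17 after thinning, and ranged from -1.87 to -1.33 with 1 library left out. miR-199b-5p then ranged from -0.21 to 0.37. The cause was not tested.

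The arm ratio of miR-199a was called in all 12 alternatives, between -1.90 and -1.52. The count of all miRNAs called, 178, ranged from 114 (without 0 h replicate 1) to 179 with 1 library left out, and that of arm ratios, 44, from 20 to 32, where fewer samples enter (20 without 0 h replicate 1, 25 without replicate 2 and 25 without replicate 3). Of the read ratios, miR-214-3p to miR-126a-3p ranged from -0.68 to 0.016 and miR-199a-5p to miR-143-3p from -0.59 to 0.24, and the share difference of miR-214-5p from -0.0024 to 0.00042 percentage points. Libraries with the same replicate number were not treated as pairs in the main test. Their deviations from the group means correlated at 0.068, 0.064 and 0.27, against -0.22 to 0.16 for unlike numbers. These values do not settle whether the libraries were paired. The edgeR fit used the recovered reads, and the replicate block called 195 miRNAs. The reads of miR-214-3p at 6 d, 13 to 29 a library, limit the precision of its level in each of these libraries. Its call was lost without 0 h replicate 2 and kept when any of the 6 d libraries was left out.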
